A study of Homo sapiens with 12 samples.

Results

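The SREBF1 locus was described through the peaks that chromatin immunoprecipitation followed by sequencing (ChIP-seq) placed over it in Huh7, a human hepatocellular carcinoma line. The window ran over chromosome 17 from 17.68 to 17.78 Mb (hg19), which holds SREBF1 on the minus strand from 17.740 Mb, its gene start, down to 17.714 Mb. Every deposited peak of the 10 ChIP lists that overlapped this window was taken, which gave 166 of 1569855 peaks. Of these, 85 had a q of 0.05 or less, the false discovery rate given by the peak caller, and these are called regions here.

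SREBF1 encodes SREBP1, a transcription factor that is held in the endoplasmic reticulum membrane, released by cleavage in the Golgi and carried to the nucleus, where it switches on genes of fatty acid and triglyceride synthesis. In liver it is known as the main driver of lipogenesis in response to insulin. Its isoforms SREBP-1a and SREBP-1c are made from separate promoters with different first exons, and an intron of the gene carries MIR33B, a microRNA that acts on cholesterol export. VPS72, or YL1, is a histone chaperone that hands the variant H2A.Z to chromatin as a subunit of the SRCAP and TIP60 remodelling complexes. H3K27ac and acetylated H2A.Z (H2A.Zac) are marks of active promoters and enhancers, and H3K4me1 is found at enhancers and on the shoulders of active promoters.

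All libraries came from Huh7 cells whose own VPS72 gene had been edited to end in a FLAG tag, with the edited colonies selected by blasticidin. The control cells were infected for 24 h with an empty lentivirus (lenti-HA in the titles). The overexpression cells were infected for 24 h with a lentivirus for VPS72-FLAG, so that they carried tagged VPS72 from both the gene and the virus. Each condition had 1 library of input and 1 for each antibody, against H3K27ac, H3K4me1, H2A.Z, H2A.Zac or FLAG, 12 in all. FLAG ChIP of untagged cells was not analysed here, so FLAG signal cannot be told apart from nonspecific signal of the antibody.

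No group had a replicate, so the conditions are set side by side with no test. The value used for a peak is its summit height, its summit reads divided by the genome average of the same library. Reads were recovered from the authors' fold and p of each peak. The 95% intervals are exact Poisson intervals for a height and exact conditional binomial intervals for a ratio of heights. They cover counting error only, and reads copied by PCR would make them too narrow. The estimated depth of each of the 8 histone libraries was at least 17.9 M reads (M, mega). The FLAG libraries were shallower, at 4.38 M for the control and 3.07 M for overexpression. FLAG values are therefore the least precise. Neither input list had a peak in the window.

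The promoter at the SREBF1 gene start is shown because the strongest peak of the locus lay over the gene start. It is the stretch of 250 bases before the RefSeq gene start, chr17:17836987-17837236 on the minus strand of GRCh38.p14, 5′ to 3′, with the matches to the GC box GGGCGG (either strand), the sequence bound by SP1, in capitals.
SREBF1 promoter: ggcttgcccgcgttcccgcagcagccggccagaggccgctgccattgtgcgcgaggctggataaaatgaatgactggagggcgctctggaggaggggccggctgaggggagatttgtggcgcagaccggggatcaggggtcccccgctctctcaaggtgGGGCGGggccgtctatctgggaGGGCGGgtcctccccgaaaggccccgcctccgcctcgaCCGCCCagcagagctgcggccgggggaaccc

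This promoter was rich in G and C and held several GC boxes. Its GC content was 71.2%, against a median of 58.0% over 35116 RefSeq promoters of the same length, and it had 22 CpG against a median of 11. The 3 GC boxes began 91, 69 and 31 bp before the start. At least 1 GC box was found in 42.6% of all promoters and as many as here in 13.9%. No match was found on either strand for the E-box CANNTG (present in 61.8% of promoters), CCAAT (32.0%), TATAAA (10.7%), the sterol response element core TCACNCCAC (0.883%), the CRE TGACGTCA (1.65%) or the AP-1 site TGANTCA (6.57%). A missing match says only that these letters are not in this window. In the same gene table SREBF1 spanned 25.7 kb, with MIR33B and MIR6777 inside it, RAI1 overlapping its far end by 120 bp and TOM1L2 6.52 kb upstream. Coordinates were not converted between builds, so the promoter, the start of SREBP-1c and MIR33B were not placed on the peaks, and the gene start below is the rounded 17.740 Mb. Distances are therefore good to about 1 kb, and the gene start zone was taken as summits within 2 kb of it.

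**Figure D1:**
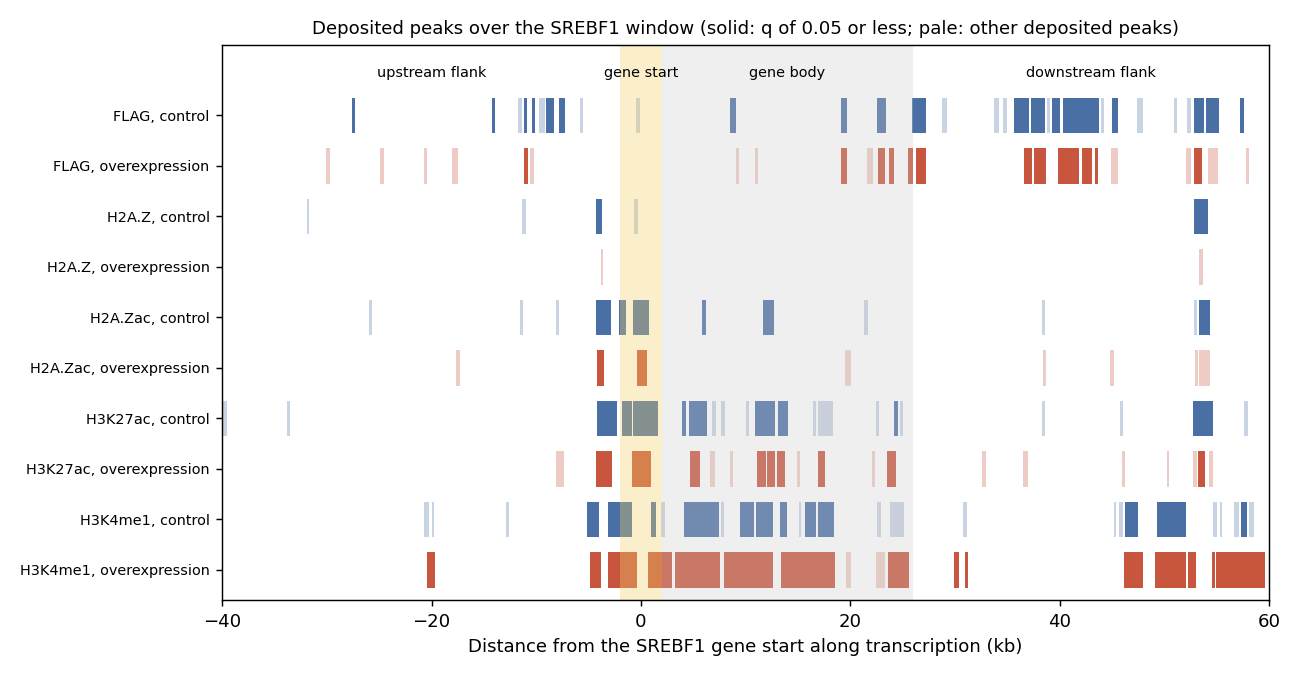
Peaks of the 10 ChIP lists along the SREBF1 window, by distance from the gene start in kb along transcription (negative is upstream). Solid bars passed a q of 0.05, pale bars are the other deposited peaks, blue the control and red overexpression. H3K27ac lies at the gene start, about 3.7 kb upstream, in the gene body and near +53 kb. H2A.Zac lies there too, but with only 2 weak gene body regions, both in the control. Near +53 kb it misses the q limit with overexpression. H3K4me1 spreads over the gene body, and the widest FLAG cover lies past the far end of the gene.

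The locus was dense in H3K27ac and H3K4me1 regions and in FLAG regions. There were 9 H3K27ac regions in either condition, where the genome had a mean of 0.902 and 0.786 per 100 kb. As many or more were held by 0.554% and 0.336% of 30325 such windows, counted without regard to how mappable each was. H3K4me1 had 12 control and 15 overexpression regions, against genome means of 0.663 and 2.82, and 0.185% and 2.62% of windows held as many. Over all deposited peaks the order turned, with 27 in the control and 17 with overexpression. The H3K4me1 list with overexpression was longer over the genome as a whole, with 85651 regions against 20108 in the control. FLAG had 18 and 12 regions against means of 2.25 and 1.52, and 2.03% and 1.72% of windows held as many. H2A.Zac had 6 and 2, against means of 1.32 and 0.933, and 4.56% and 22.8% of windows held as many. H2A.Z had 2 in the control and none with overexpression, against means of 0.86 and 0.464, and 21.4% of windows held as many as the control.

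Most regions of the window were found in both conditions. A region counts as found when any deposited peak of the other condition overlaps it by at least 1 bp, and the same share over the whole list is given as background. For H3K27ac, 7 of 9 control regions were found with overexpression (84.5% of the whole list) and 9 of 9 overexpression regions were found in the control (90.5%). For H3K4me1 the counts were 12 of 12 (89.7%) and 13 of 15 (55.2%). For H2A.Zac they were 3 of 6 (74.0%) and 2 of 2 (93.3%). Both control H2A.Z regions were found (60.5%), only as peaks that missed the q limit, and there was no overexpression region to look for (89.7% of that list was found). For FLAG they were 12 of 18 (68.4%) and 11 of 12 (74.0%). With so few regions per antibody, none of these counts was read as a difference from the background.

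The strongest peak of the locus by q was H3K27ac over the gene start, in the control and with overexpression alike. In the control the peak ran from 17738370 to 17740717, with 77 reads at its summit, a height of 41.2 (95% interval 32.5 to 51.4) and an authors' fold of 26.0. With overexpression it ran from 17739043 to 17740885, with 76 reads, a height of 35.4 (27.9 to 44.4) and an authors' fold of 16.7. Only 1.33% of control H3K27ac regions and 1.47% of those with overexpression had a smaller q. The height ratio was 0.861 (0.619 to 1.198), so the interval holds 1. The genome-wide median ratio of H3K27ac was 0.748, and 70.6% of shared regions had a lower ratio than the gene start. The ratio of the authors' folds was 0.643. The local background that enters the fold, over the same genome average, was 1.00 for the control and 1.60 with overexpression. The summit lay at 17739821 in the control and at 17739994 with overexpression, both nearer to the rounded gene start than its precision.

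H2A.Zac peaked at the same place. The control peak (17739217 to 17740715) had 25 reads and a height of 12.9 (8.34 to 19.0). With overexpression the peak (17739435 to 17740408) also had 25 reads and a height of 11.2 (7.24 to 16.5). The ratio was 0.869 (0.479 to 1.576), against a genome-wide median of 0.652, and 87.3% of shared H2A.Zac regions had a lower one. Local background was 1.00 in the control and 1.74 with overexpression. The summits were 4 bp apart. Relative to the median of each mark the gene start ratios were above 1, at 1.15 for H3K27ac and 1.33 for H2A.Zac, so their direction depends on the scale chosen.

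No H2A.Z region passed the q limit at the gene start in either condition. The control had 1 peak there (17740288 to 17740616) with 6 reads and a height of 4.29 (1.58 to 9.35), and it missed the q limit. With overexpression no H2A.Z peak was listed within 2 kb of the gene start. FLAG, the tag on VPS72, had a peak of 5 reads there in the control (17740074 to 17740438) that missed the q limit, and no listed peak with overexpression. The nearest FLAG regions in the control ended 8552 bp inside the gene and began 7212 bp upstream, and with overexpression these distances were 19066 and 10780 bp.

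H3K4me1 flanked the rounded gene start and left an uncovered stretch around it in both conditions, though at a precision of about 1 kb the true start may lie under a flank. The inner flank (17738520 to 17739055 in the control, 17737066 to 17739358 with overexpression) had 15 reads and a height of 8.37 in the control, and 25 reads and 12.2 with overexpression, a ratio of 1.45 (0.737 to 2.967). The outer flank (17740870 to 17743112, and 17740401 to 17743123) had 18 reads and 10.04, and 24 reads and 11.7, a ratio of 1.16 (0.605 to 2.275). The uncovered stretch between them was 1814 bp long in the control and 1042 bp with overexpression, and the H3K27ac and H2A.Zac summits of both conditions lay within it. H3K4me1 regions covered 41.7% of the 4 kb gene start zone in the control and 74.0% with overexpression. H3K27ac regions covered 80.6% and 46.1%, and H2A.Zac regions 51.2% and 24.4%. With all deposited peaks the cover stayed at 3225 and 1843 bp for H3K27ac and at 2050 and 974 bp for H2A.Zac. For H3K4me1 it went from 1667 to 1743 bp in the control and stayed at 2958 bp with overexpression. The shares were not set beside the cover of the whole genome.

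Both acetylation marks had a smaller shoulder on the upstream side that was listed only in the control. The H3K27ac shoulder (17740890 to 17741766) had 14 reads and a height of 7.48, and the H2A.Zac shoulder (17741450 to 17742053) had 11 reads and a height of 5.67. With overexpression no H3K27ac peak was listed between 17740885 and 17742770, and no H2A.Zac peak between 17740408 and 17743483. The H3K27ac gene start peak with overexpression thus ended just short of the control shoulder. Both shoulders were weak and selected where they were high. By q, 81.5% of control H3K27ac and 74.6% of control H2A.Zac regions were stronger. Over the whole lists 84.5% and 74.0% of control regions were found with overexpression.

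**Figure D2:**
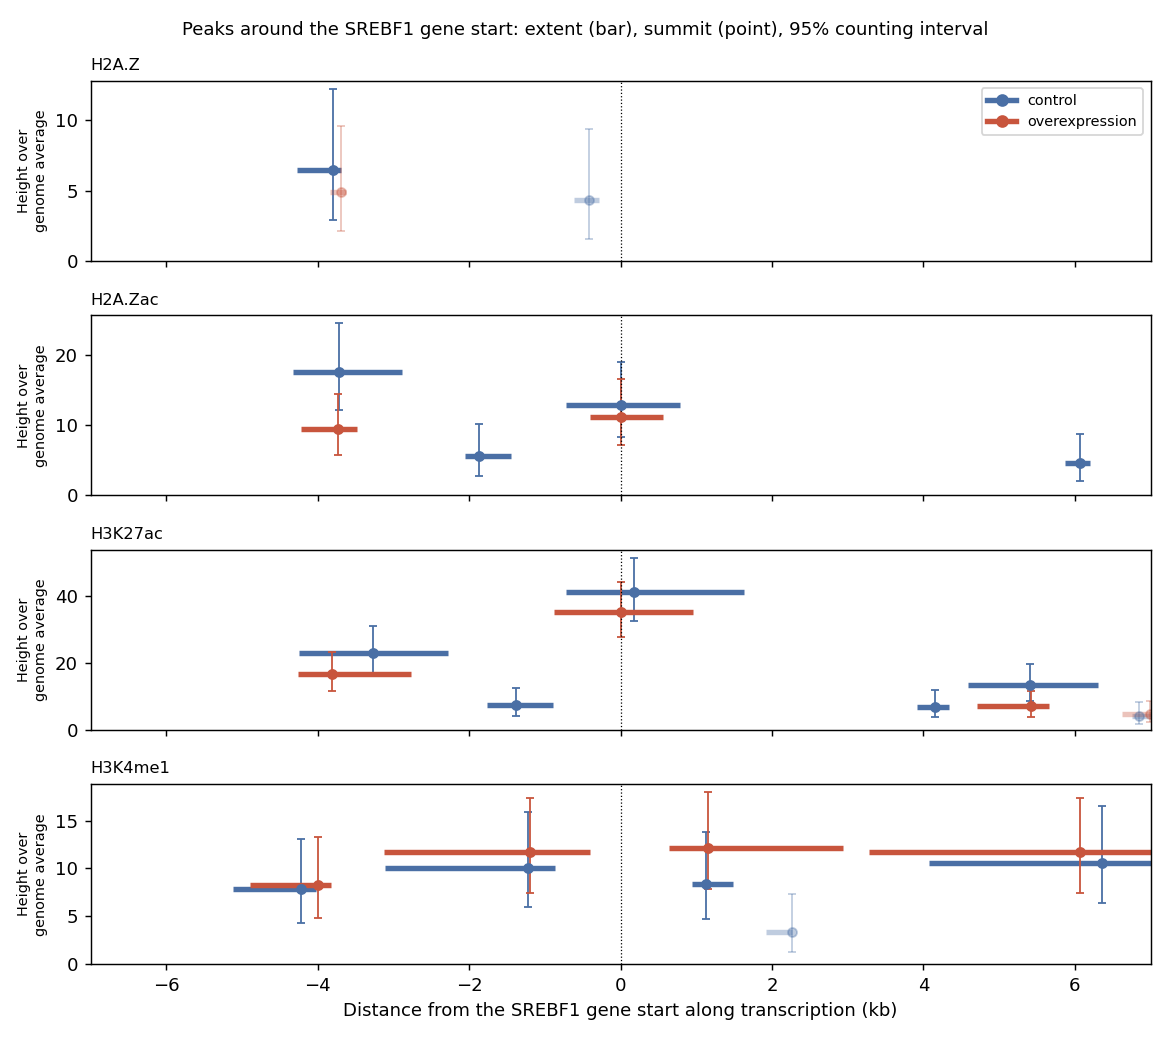
Peaks from 7 kb upstream to 7 kb inside SREBF1, with the summit height over the genome average on the vertical axis and the distance from the gene start in kb on the horizontal one, for 4 antibodies in control (blue) and overexpression (red). Horizontal bars are peak extents, points summits, vertical bars 95% counting intervals and pale marks peaks with a q above 0.05. H3K27ac reaches 41.2 and 35.4 at the gene start, and H3K4me1 leaves a gap around the rounded 17.740 Mb.

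An element about 3.7 kb upstream carried H2A.Zac, H3K27ac, H2A.Z and H3K4me1 together, and it held the only shared region of the window whose ratio interval left out 1. H2A.Zac (17742891 to 17744329 in the control, 17743483 to 17744215 with overexpression) had 34 reads and a height of 17.5 (12.1 to 24.5) in the control. With overexpression it had 21 reads and a height of 9.40 (5.82 to 14.4). The ratio was 0.537 (0.296 to 0.952), which is 1 such interval among 35 shared regions. It was also within the usual range of the mark, since 20.7% of shared H2A.Zac regions had a lower ratio.

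H3K27ac at this element (17742278 to 17744245 in the control, 17742770 to 17744255 with overexpression) had 43 reads and a height of 22.98 (16.6 to 31.0) in the control and 36 reads and 16.8 (11.8 to 23.2) with overexpression. The ratio was 0.731 (0.456 to 1.165), close to the genome-wide median of 0.748. It was the second highest H3K27ac summit of the window in each condition, after the gene start. H2A.Z had 9 reads and a height of 6.44 in the control, where it passed the q limit, and 8 reads and 4.88 with overexpression, where it did not, a ratio of 0.757 (0.254 to 2.21). H3K4me1 (17744021 to 17745119, and 17743819 to 17744891) had 14 reads and a height of 7.81, and 17 reads and 8.27, a ratio of 1.06 (0.492 to 2.321). The H3K4me1 peak lay wholly on the upstream side of the H2A.Zac summit in both conditions. Further upstream no acetylation region passed the q limit. A H3K4me1 region at 19.9 kb passed it only with overexpression (14 reads, against 10 in the control), so it was selected only where it was high.

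In the gene body H3K27ac formed a chain of weaker regions, and all 4 of those shared and selected in the control were lower with overexpression (87.3% of such regions over the whole list). The highest of the control, 13.4 kb from the gene start (17725997 to 17726935 in the control), had 31 reads and a height of 16.6 in the control and 26 reads and 12.1 with overexpression, a ratio of 0.732 (0.417 to 1.274). Its neighbour at 12.4 kb had 29 and 26 reads, a ratio of 0.782 (0.443 to 1.376). The region at 5.4 kb (17733695 to 17735411) had 25 and 15 reads, and its ratio of 0.524 (0.257 to 1.033) was lower than all but 6.68% of shared regions. A region at 24.3 kb had 12 and 11 reads, a ratio of 0.800.

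The exception lay 17.1 kb from the gene start. There the control had 11 reads and a height of 5.88 and missed the q limit, while overexpression (17722396 to 17723086) had 20 reads and a height of 9.33. The ratio of 1.59 (0.725 to 3.666) has an interval that holds 1, and the region was selected only where it was high, so its ratio was not ranked against the control-selected list. A small region at 4.2 kb (13 reads) was listed only in the control.

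Over all shared H3K27ac regions selected in the control, 7 of 7 were lower with overexpression, beside the 87.3% of the whole list. Their median ratio was 0.732, beside the 0.748 of the whole list. For H2A.Zac 3 of 3 were lower, beside 95.5% of the whole list, with a median of 0.543 beside 0.652. In the gene body H2A.Zac had 2 weak regions, at 12.5 kb with 10 reads and at 6.1 kb with 9, and both were listed only in the control. No H2A.Z peak was listed in the gene body in either condition. All 6 H2A.Zac regions of the control lay on an H3K27ac region, as did 49.9% of the whole list, and both with overexpression did, beside 54.4%.

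H3K4me1 covered most of the gene body with overexpression, mainly in 4 long regions. It covered 40.2% of the 24 kb gene body in the control and 71.6% with overexpression, and 18.2% and 34.4% of the whole window. With all deposited peaks it covered 12144 and 18405 bp of the gene body. Cover of the whole genome was not measured beside these shares. The q limit also lay at a lower −log10 p with overexpression. There a peak of 9 reads with a −log10 p of 3.45 passed it, while a control peak of 13 reads with 4.11 missed it. What part this has in the shares was not tested. The longest region ran from 17721434 to 17726650 with overexpression, with 34 reads and a height of 16.5 (11.5 to 23.1). It was number 59 of the 85651 regions of its list by q. In the control the same stretch was broken into 3 regions, the highest of which (17723230 to 17724365) had 19 reads and a height of 10.6 (6.38 to 16.6). The ratio was 1.56 (0.866 to 2.897). It was higher than in 91.1% of shared regions, but that list takes each control region by itself and joins none. The ratio compares summits 944 bp apart. The summit with overexpression lay over another control region (17721557 to 17723060), which had 15 reads and a height of 8.37. This stretch also contains the H3K27ac region at 17.1 kb, which was selected only with overexpression, where it was higher. The ratio intervals of both marks hold 1 here, and a joint change was not tested.

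The other H3K4me1 regions of the gene body had height ratios of 0.997 to 1.34, and the called regions were longer with overexpression. The first of them joined separate control regions. The strongest of the control (17727386 to 17729048), number 94 of its 20108 regions, had 21 reads and a height of 11.7. With overexpression a region from 17727342 to 17732063 held both it and a further control region (17729207 to 17730510, 10 reads). That longer region had 24 reads and a height of 11.7, a ratio of 0.997 (0.532 to 1.883). The region next to it toward the gene start (17732517 to 17735930 in the control) had 19 reads and a height of 10.6, and with overexpression (17732467 to 17736723) 24 reads and 11.7, a ratio of 1.10 (0.579 to 2.128). Here the authors' fold went the other way, from 6.75 to 2.92, with a local background of 1.00 in the control and 3.66 with overexpression. At the far end of the gene a region from 17714367 to 17716426 passed the q limit only with overexpression. It had 20 reads against 13 in the control, a ratio of 1.34 (0.635 to 2.936). The region was selected only where it was high, so its ratio was not ranked against the control-selected list. The ratio of the authors' folds was 3.36 there, with a local background of 3.35 in the control and 1.03 with overexpression.

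Over all 9 shared H3K4me1 regions selected in the control, 3 were lower with overexpression, and the median ratio was 1.10. The whole list had 37.7% lower and a median of 1.09, but it takes each control region by itself. Here 12 control regions were joined into 9, each with its highest summit, so the measures differ. Joining left out lower control summits, whose ratios would be higher. Of the control H3K27ac regions, 7 of 9 overlapped an H3K4me1 region (20.2% of the whole list), and of those with overexpression 8 of 9 did (46.0%). These counts describe 1 locus and were not tested.

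**Figure D3:**
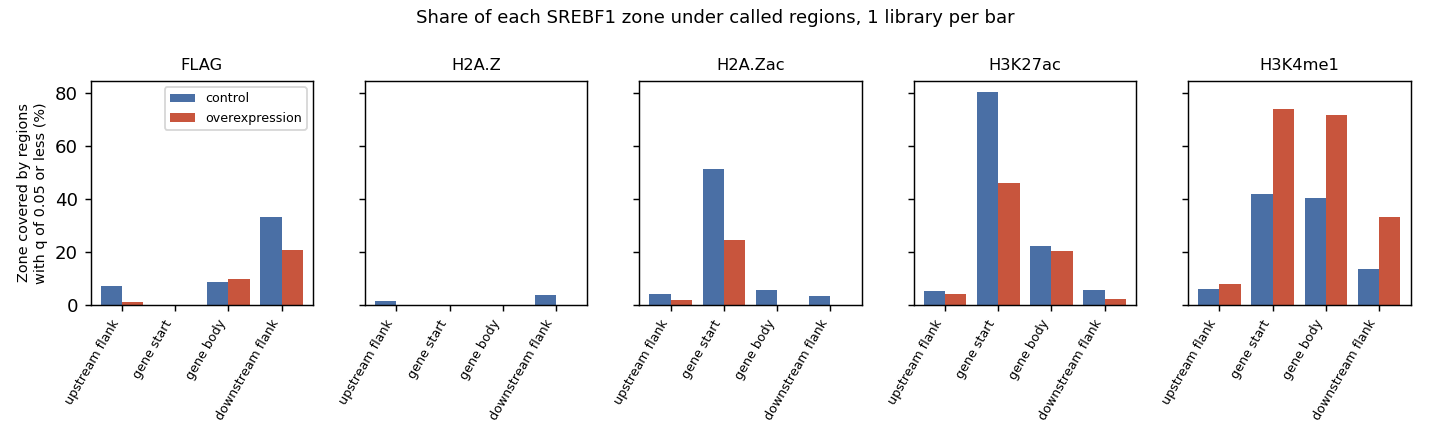
Share of each zone of the SREBF1 window (upstream flank, gene start, gene body, downstream flank) covered by called regions (q of 0.05), in percent, 1 library per bar, blue for the control and red for overexpression. H3K4me1 coverage of the gene body goes from 40.2% to 71.6%, and H3K27ac coverage of the gene start from 80.6% to 46.1%. Cover of the whole genome was not measured, and the H3K4me1 list was longer with overexpression (85651 regions against 20108).

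FLAG regions lay on both sides of the gene and within it, with 9 of 18 control and 7 of 12 overexpression regions in the downstream flank. The strongest FLAG peak of the window was the same in both conditions and lay just past that end. In the control (17712721 to 17714095) it had 13 reads, a height of 28.5 (15.2 to 48.7) and an authors' fold of 6.40, and 16.8% of the control FLAG regions had a smaller q. With overexpression (17712760 to 17713732) it had 16 reads, a height of 48.6 (27.8 to 78.9) and an authors' fold of 8.77, and 8.05% of its list had a smaller q. The ratio was 1.70 (0.769 to 3.851), higher than in 95.1% of shared FLAG regions, with an interval that holds 1. No acetylation region overlapped this peak in either condition.

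The gene body held 3 FLAG regions in the control and 4 with overexpression, among them 1 at the far end (17713981 to 17714490) that overlapped the strongest control peak and had 5 reads. A region 22.8 kb from the gene start (17716572 to 17717457) had 12 reads and a height of 26.3 in the control, and 6 reads and 18.2 with overexpression, a ratio of 0.692 (0.213 to 1.993). Next to it a region from 17715865 to 17716341 was listed only with overexpression, with 9 reads. A region at 19.3 kb had 7 and 6 reads, and one at 8.9 kb, with 6 reads, was listed only in the control. Upstream, 6 control regions of 5 to 8 reads lay 7.6 to 27.4 kb from the gene start, and 1 region with overexpression had 6 reads.

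Past the strongest peak, FLAG regions of 6 to 13 reads ran over the downstream flank. All FLAG regions together covered 33.1% of its 34 kb in the control and 20.6% with overexpression. The longest, 17696250 to 17699685 in the control, had 13 reads and a height of 28.5, and with overexpression the highest summit there had 8 reads and 24.3, a ratio of 0.852 (0.306 to 2.218). Of the 10 shared FLAG regions, all selected in the control, 4 were lower with overexpression, and the median ratio was 1.14. The whole list had 63.5% lower and a median of 0.865, but it takes each control region by itself. Here 12 control regions were joined into 10, each with its highest summit, so the measures differ. The FLAG library with overexpression was the shallower one, and a ratio of such small read numbers has a wide interval. Local background under FLAG regions was higher in the window than over the list, with medians of 2.62 against 2.12 in the control and 3.01 against 2.05 with overexpression. What part this has in the FLAG regions was not tested. Of 18 control FLAG regions, 2 overlapped an H3K27ac region (5.48% of the whole list), 2 an H2A.Zac region (10.4%), 2 an H2A.Z region (8.31%) and 1 an H3K4me1 region (2.43%). Of 12 with overexpression, 2 overlapped an H3K27ac region (4.73%), 3 an H3K4me1 region (7.98%), and none an H2A.Z region (5.43%) or an H2A.Zac region (7.81%).

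The downstream flank held a further element, about 53 kb from the gene start, where H2A.Z, H2A.Zac, H3K27ac and FLAG regions met in the control. H2A.Z (17685854 to 17687152) was at its highest in the window here, with 13 reads and a height of 9.30 in the control. With overexpression it had 10 reads and 6.09 and missed the q limit, a ratio of 0.655 (0.257 to 1.617). H2A.Zac (17685604 to 17686660) had 24 reads and a height of 12.4 in the control, and 15 reads and 6.72 with overexpression, where it too missed the q limit, a ratio of 0.543 (0.265 to 1.078) by height and 0.318 by the authors' fold. H3K27ac (17685364 to 17687223) had 23 reads and a height of 12.3, and 17 reads and 7.93, a ratio of 0.645 (0.324 to 1.262).

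All 3 summit heights were lower with overexpression, and each interval holds 1. A pair of control FLAG regions overlapped the element. The one at 53.1 kb had 9 reads in the control against 6, a ratio of 0.923 (0.270 to 2.904). The one at 54.7 kb (17684738 to 17685994) had 11 against 6, a ratio of 0.755 (0.229 to 2.228), and missed the q limit with overexpression. The strongest H3K4me1 region near this element lay outside it, from 17687893 to 17690708 in the control, with 21 and 23 reads and a ratio of 0.956 (0.506 to 1.815). With overexpression H3K4me1 regions also reached the edges of the control H3K27ac region, on one side with 21 reads (17687013 to 17687730) and on the other with 12 (17685187 to 17685486).

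**Figure D4:**
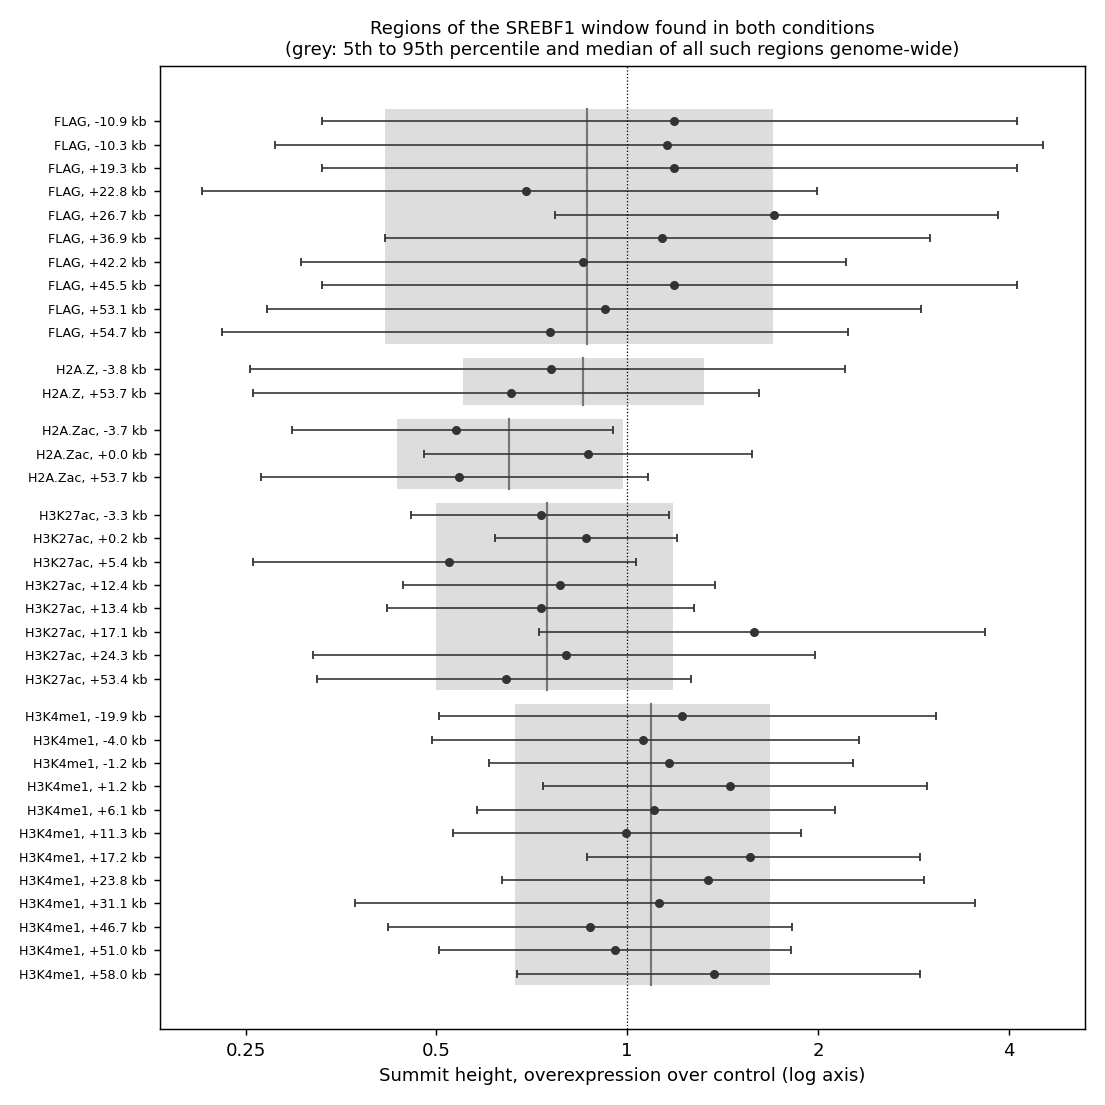
Height ratio, overexpression over control on a log axis, of the 35 regions of the SREBF1 window found in both conditions, by antibody and distance from the gene start in kb. Points are ratios and bars 95% counting intervals. Grey bands are the 5th to 95th percentile, with the median, of shared regions of the genome selected in the control and not joined. H3K27ac at 17.1 kb and H3K4me1 at 31.1 kb, at 23.8 kb and 19.9 kb upstream were selected only with overexpression, so the bands do not rank them. Only H2A.Zac 3.7 kb upstream has an interval without 1, and its ratio is inside the grey band.

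Joined over both conditions, the window held 49 regions. Of these, 35 were found in both, 11 only in the control and 3 only with overexpression. The 11 were 6 FLAG, 3 H2A.Zac and 2 H3K27ac regions, each with 5 to 14 reads. The 3 were 1 FLAG and 2 H3K4me1 regions, with 9 to 21 reads. Over the whole lists, not joined, 68.4% of FLAG, 74.0% of H2A.Zac and 84.5% of H3K27ac control regions were found with overexpression. In the other direction 74.0% of FLAG and 55.2% of H3K4me1 regions were found. The counts of the window were not read as a difference from these shares. The other 81 deposited peaks of the window missed the q limit, and their summits had 3 to 15 reads.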

How the data were processed

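Each library had a MACS2 peak list and a list of summits, which held the same summits in 12 of 12 libraries. The submitters' processing notes name FastQC, Trimmomatic, BWA and MACS2, without versions, and both hg19 and hg38. No peak on any of 23 chromosomes passed its hg19 length (circlize 0.4.16 in R 4.3.3), and on 14 some passed the hg38 length, so coordinates are hg19, 1-based. Which control and thresholds MACS2 was run with is not given in the sources used here. As MACS2 writes it, the deposited fold is a ratio of summit to local background. Deposited p-values and q-values are on the −log10 scale, the deposited integer score follows from the −log10 p, and the deposited summit offset is a position in the peak. The smallest −log10 p of each deposited list was 1.30 to 1.31, so the lists were cut at a p of 0.05, and a q of 0.05 was used here as the limit.

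Groups came from the titles. Genotype labels of the overexpression libraries run from VPS72 to other VPS names and were read as VPS72, and peak names of the control H3K4me1 list spell H3k3me1. Whole reads at summits were recovered from fold and p under the MACS2 formula, within 0.002 of the −log10 p (relative to it where it is above 1), for at least 99.894% of the peaks of each list and for all 166 members. For 9 members a further number lay within that tolerance, and the closest was used. Recovery was tested on simulated data. The genome average is the lowest background of a list, and depth assumes 2.7 Gb and the shortest peak as fragment length. Joined regions are overlapping peaks of both conditions with a q of 0.05 or less in at least 1, and their ratio uses the highest summit of each condition. All joined regions are accounted for, and those at the gene start and the strongest of each zone are given in full. Shared regions of the genome are control regions overlapping any deposited overexpression peak on chromosomes 1 to 22 and X. They were taken singly and not joined, each against the highest overexpression peak that it overlapped. Python 3.11.15, numpy 2.4.6, pandas 2.3.3 and scipy 1.17.1 were used.

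The locus, zones and limits were chosen with earlier results of these data known. Only a GRCh38.p14 gene table was used here, so the pathway genes, hepatocyte genes and genes of similar pattern were not analysed here.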

Additional observations from a re-analysis of the deposited data

How the results depend on the processing

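No paired analysis was possible because each group held 1 library, and for the same reason no library could be left out. Counts of regions in the window depended most on the limit. With all deposited peaks the counts in control and overexpression were 30 and 24 for FLAG, 5 and 2 for H2A.Z, 12 and 8 for H2A.Zac, 21 and 20 for H3K27ac, and 27 and 17 for H3K4me1, whose order was thereby turned. Covered length then became 15128 bp for FLAG and 4582 bp for H2A.Zac with overexpression, and 2872 and 596 bp for H2A.Z. With a q of 1e-05 or less they were 3 and 1 for FLAG, 3 for control H2A.Zac, 5 for H3K27ac with overexpression, 3 and 7 for H3K4me1 and 0 for control H2A.Z. Covered length was then 5697 and 973 bp for FLAG, 0 bp for control H2A.Z, 5499 bp for H3K27ac with overexpression and 7893 bp for control H3K4me1. With a height of 5 or more in place of q they were 30 and 24 for FLAG, 1 for H2A.Z with overexpression and 22 and 14 for H3K4me1, again in the other order. Joining across gaps of up to 500 bp left 7 FLAG regions with overexpression. Against peaks of q 0.05 or less, 0 control H2A.Z regions were found. A gene start zone of 1 kb held 1 control region of H2A.Zac, 1 of H3K27ac, and 0 H3K4me1 regions in either condition. A zone of 5 kb held 1 control H2A.Z region, 2 H2A.Zac regions with overexpression, and 4 and 2 H3K27ac regions.

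Divided by the median ratio of each antibody, the ratio turned from below 1 to 1.333 for H2A.Zac and 1.152 for H3K27ac at the gene start, to 1.067 for FLAG at 53.1 kb, and to 1.069 and 1.046 for H3K27ac at 24.3 and 12.4 kb, and from above 1 to 0.971 for H3K4me1 4.0 kb upstream. As ratios of the authors' folds, FLAG at 45.5 kb (0.852), FLAG 10.3 kb upstream (0.963) and H3K4me1 at 6.1 kb (0.432) turned below 1, and H3K4me1 at 11.3 kb (1.082) above it. Without turning, the fold moved H3K4me1 at 23.8 kb from 1.342 to 3.355, H2A.Zac at 53.7 kb from 0.543 to 0.318 and H3K27ac at 5.4 kb from 0.524 to 0.793, and the median moved H2A.Zac at 53.7 kb to 0.833 and 3.7 kb upstream to 0.824. The cause was not tested. Depth limits FLAG most.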
